A study of Mus musculus with 46 samples.

Results

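The 9 genes described here, Wt1, Nr5a1, Gata4, Zfpm2, Lhx9, Cbx2, Emx2, Six4 and Dmrt1, are transcription factors and chromatin regulators of the early gonad. They were taken by symbol from 33331 gene rows, and each had 1 row in the count table and in the TPM table. All 9 passed the filter on low counts in each of the 23 comparisons made. The tissue was whole mouse gonad at E12.5, about when the testis and the ovary begin to differ, and the RNA was poly(A)-selected. The study mutated Enh13, a remote enhancer of Sox9, the gene that starts Sertoli cell differentiation in the testis. The 46 libraries fall into 12 groups, XX and XY of each of 6 genotypes. Wild type, 1bp-ins heterozygotes and 3bp-del heterozygotes had 3 libraries of each sex, and 1bp-ins and 3bp-del homozygotes had 5 of each sex. The genotype labelled 3bp-12bp-del-hom, homozygous by its label, had 5 XX and 3 XY libraries. The labels give neither strain nor litter, and nothing in them says that replicates came from separate embryos, so p-values measure only the spread between these samples, which may be technical.

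The gonad begins as the genital ridge, a thickening of the coelomic epithelium that is at first alike in XX and XY embryos. Wt1, Nr5a1, Gata4, Lhx9, Emx2 and Six4 are known for their part in building that ridge, and several of them also act upstream of Sry, the Y-linked gene that turns on Sox9. Once the sexes part, supporting cells of the testis (Sertoli cells) and of the ovary (pregranulosa cells) keep different amounts of these factors, and germ cells carry some of them as well.

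Depth was even, at 29909111 to 46150400 estimated counts a library. The labelled tissue was checked with 3 reference genes, given in CPM (counts scaled to library size, with TMM factors over all libraries). Foxl2, a pregranulosa factor, was at 46.8 to 58.6 CPM in XX wild type and at 1.61 to 2.61 in XY wild type. Amh, a Sertoli hormone, was at 0.09 to 0.26 CPM in XX wild type and at 218 to 542 in XY wild type. In the 15 XX homozygous libraries Sox9 stood at 137 to 268 CPM, against 7.78 to 12.03 in XX wild type. A set of 4 libraries stood apart by markers of neighbouring tissue. The summed level of 8 mesonephros markers (among them Pax2, Pax8, Cdh16, Wnt9b, Ret, Lhx1 and Gata3) was 242 CPM in XY wild type replicate 3, 134 in XX 3bp-del homozygote replicate 4 and 84.6 in XX wild type replicate 1, and none of the 8 genes was at 0 in these. XX wild type replicate 1 was also highest in 8 adrenal markers (182 CPM), followed by XY 3bp-del heterozygote replicate 1 (69.7 CPM). The other 42 libraries ran from 12.9 to 59.4 CPM in the mesonephros sum and from 4.40 to 50.1 in the adrenal sum. Where a call turned on these 4 libraries, it is given with and without them.

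The 9 genes differed widely in level per length, in TPM. Wt1, a zinc finger factor of gonad and kidney, was the most abundant by its range of group means, 201 to 350.3 TPM, together with Gata4, the GATA factor of the gonadal soma, at 229.7 to 336 TPM. Nr5a1, the nuclear receptor SF1, ran from 127 to 237 TPM and the LIM homeobox gene Lhx9 from 86.7 to 185 TPM. Emx2, a homeobox gene of the urogenital tract, had the widest range for its level, 44.2 to 189 TPM. The Polycomb gene Cbx2 stood at 38.7 to 46.2 TPM, Zfpm2, whose product FOG2 is the cofactor of GATA4, at 22.0 to 31.6 TPM and Dmrt1, a DM domain factor of Sertoli and germ cells, at 16.0 to 30.6 TPM. Six4, a homeobox gene, was the lowest at 3.46 to 4.88 TPM. Between the lowest and the highest group mean in CPM, Emx2 differed 3.71-fold, Dmrt1 2.29-fold, Lhx9 2.22-fold, Nr5a1 1.997-fold, Gata4 1.73-fold and Wt1 1.66-fold, while Six4, Zfpm2 and Cbx2 differed 1.35-fold, 1.30-fold and 1.10-fold. The scarcest member still had 399 counts or more in every library (Six4), and Dmrt1 had 533 or more.

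**Figure D1:**
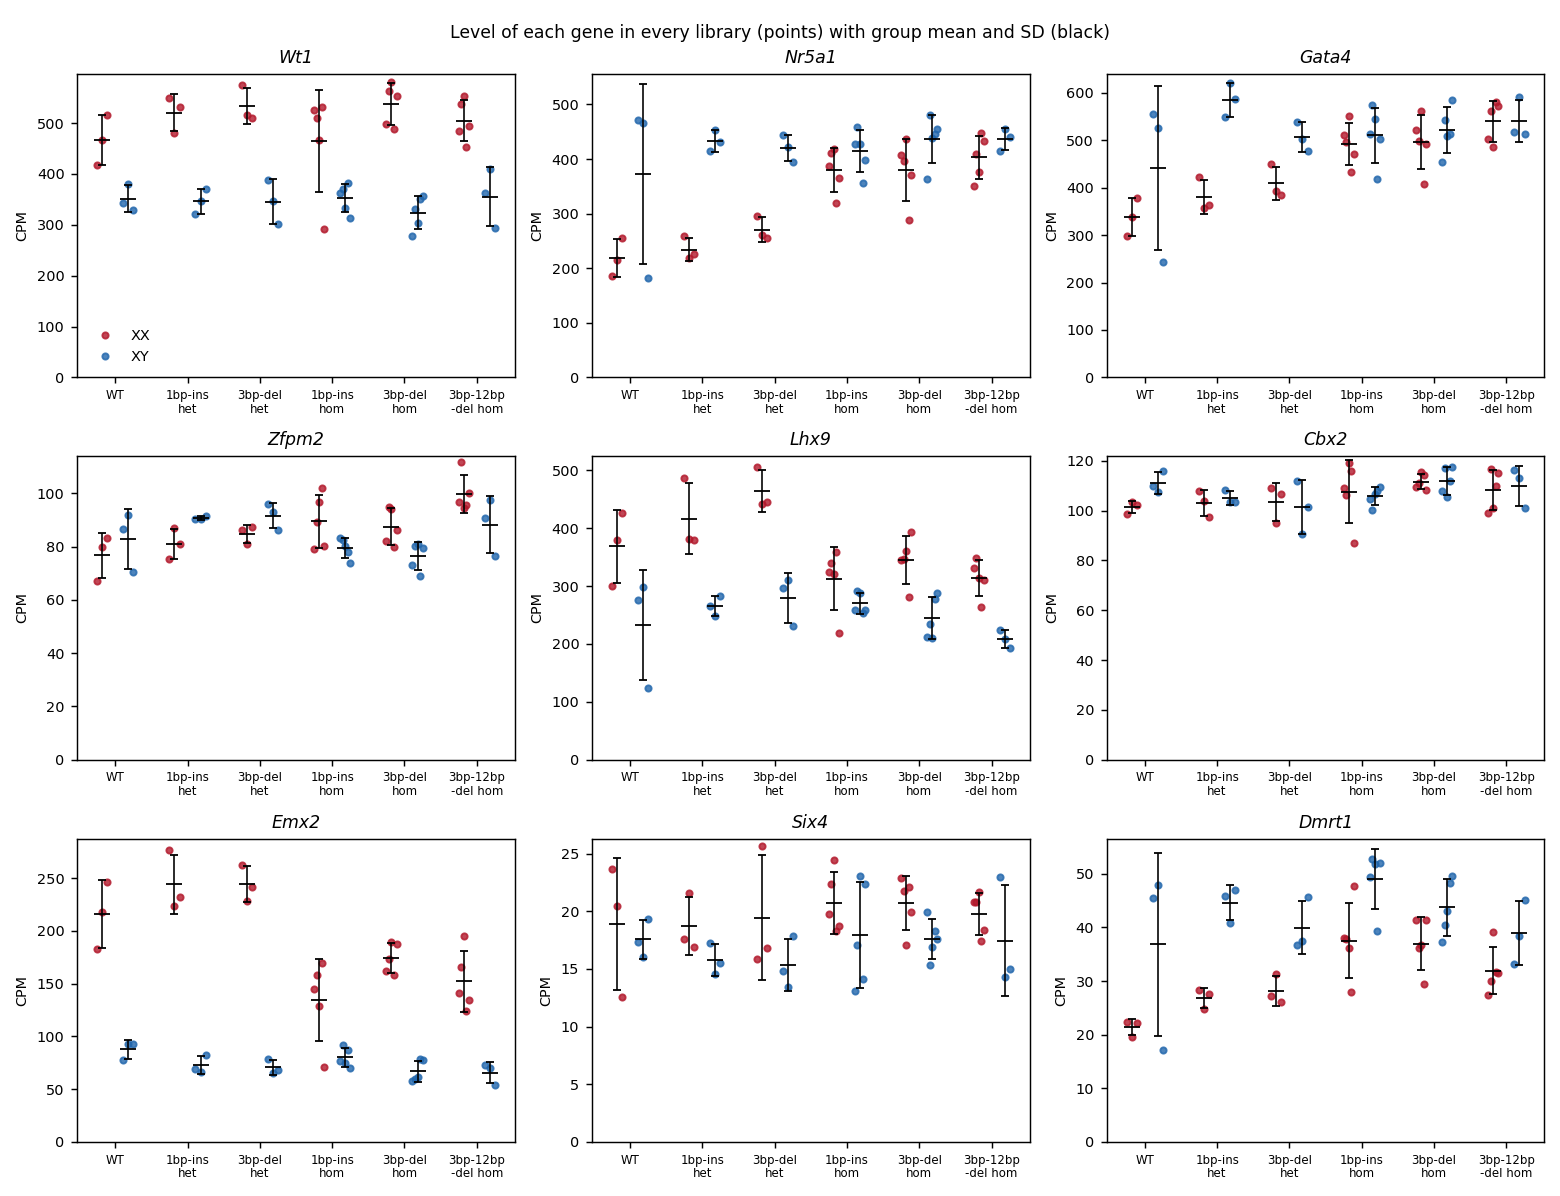
Level of each of the 9 genes (CPM, linear axis from 0) in each of the 46 libraries, XX in red and XY in blue, by genotype, with the group mean and SD in black. Emx2, Lhx9 and Wt1 lie higher in XX, Nr5a1, Gata4 and Dmrt1 lie higher in XY outside the XX homozygotes, and the XY wild type library far below its group in Nr5a1, Gata4, Lhx9 and Dmrt1 is replicate 3 (182, 242, 124 and 17.1 CPM).

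In the mm10 build the members lie on 7 chromosomes, and Dmrt1 (chr19:25505618-25604329, plus strand) shares chromosome 19 with Emx2 (chr19:59458372-59465357, plus strand). Wt1 (chr2:105126529-105173616, plus strand) and Nr5a1 (chr2:38692656-38714542, minus strand) share chromosome 2. Gata4 lies on chromosome 14, Zfpm2 on 15, Lhx9 on 1, Cbx2 on 11 and Six4 on 12. GENCODE M21 places an antisense gene at 3 of them. Emx2os overlaps Emx2 by 264 bases, Nr5a1os overlaps Nr5a1 by 1867 bases, and Wt1os ends 18 bases before Wt1. How the counting treated strand is not given in the sources used here, so reads from the overlapping parts of Emx2 and Nr5a1 and their antisense partners cannot be told apart.

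RefSeq promoter windows (GRCm38.p6, the mm10 assembly) were at hand for 3 of the 9 genes, Emx2, Lhx9 and Six4. The stretches outside annotated exons are shown for Lhx9, a member that was lower in XY, and for Six4. In the main fit of each comparison (TMM scaling, all libraries, no block, no offset for gene length), edgeR made no call of Six4. Capitals mark matches, on either strand, to GATAA (the core bound by GATA factors), AACAAAG (SOX), AAGGTCA (NR5A1) or TAATTA (LIM homeodomain), which share no bases with each other here. The Lhx9 window, chr1:138842458-138842694, minus strand, lies before an inner start of the gene and within an intron of its longer transcripts. The Six4 window is chr12:73113457-73113675, minus strand, directly before the gene.
Lhx9: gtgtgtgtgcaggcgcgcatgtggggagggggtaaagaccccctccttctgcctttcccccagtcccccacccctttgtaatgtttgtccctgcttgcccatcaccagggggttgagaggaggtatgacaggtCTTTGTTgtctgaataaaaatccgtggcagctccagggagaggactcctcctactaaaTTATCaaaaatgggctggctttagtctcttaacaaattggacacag
Six4: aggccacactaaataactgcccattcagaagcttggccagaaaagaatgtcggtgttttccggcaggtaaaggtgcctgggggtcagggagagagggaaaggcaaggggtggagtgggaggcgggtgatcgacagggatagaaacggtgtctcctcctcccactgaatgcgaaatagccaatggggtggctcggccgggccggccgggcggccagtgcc

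The Lhx9 window of 237 bases holds 1 SOX match, as its reverse CTTTGTT, and 1 GATA match, as its reverse TTATC. Over the same stretch of all 32851 windows, 4.82% hold the SOX letters and 21.9% the GATA letters, and the Lhx9 window holds no match to AAGGTCA (3.90% of windows) or TAATTA (4.75%). The Six4 window of 219 bases holds none of the 4 motifs, which are found in 20.5% (GATAA), 4.44% (AACAAAG), 3.67% (AAGGTCA) and 4.52% (TAATTA) of windows of that length. A match is a stretch of letters only, and its absence says nothing of a factor elsewhere.

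The comparison of XY with XX within a genotype asks how these factors differ between the early testis and the early ovary. In heterozygotes of both alleles the same 6 of 9 genes differed: Nr5a1, Gata4 and Dmrt1 were higher in XY, and Emx2, Lhx9 and Wt1 were lower. In the 1bp-ins heterozygotes 39.2% of all genes tested were called at an adjusted p under 0.05 (edgeR quasi-likelihood test, Benjamini-Hochberg over all genes), and in the 3bp-del heterozygotes 29.6%. By direction, 18.9% of all genes were called higher in XY and 20.2% lower in the first, and 15.9% and 13.8% in the second. Emx2 had the largest of these differences, at 3.38-fold lower in XY 1bp-ins heterozygotes and 3.43-fold lower in XY 3bp-del heterozygotes. In wild type 1 of 9 genes was called, Emx2, where 11.0% of all genes were (5.10% higher and 5.94% lower in XY). These are bulk samples, in which fewer cells of a type and less RNA per cell cannot be told apart.

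Emx2, which the gonadal epithelium needs in order to thicken and move inward, was at 183, 218 and 247 CPM in XX wild type and at 77.4, 92.8 and 93.2 in XY wild type. In 1bp-ins heterozygotes it was at 276, 224 and 232 CPM in XX and at 69.1, 66.5 and 82.7 in XY. In 3bp-del heterozygotes it was at 263, 228 and 242 CPM in XX and at 79.0, 65.3 and 68.4 in XY. In all 3 genotypes the lowest XX library lay above the highest XY library. The log2 difference, XY minus XX, was -1.33 ± 0.13 (SE; edgeR, adjusted p = 0.00161, n = 3 and 3) in wild type. It was -1.76 ± 0.10 (adjusted p = 2.94e-06) in 1bp-ins and -1.78 ± 0.09 (adjusted p = 3.66e-06) in 3bp-del heterozygotes. Emx2os, the antisense gene at its start, was at 50.7, 59.9 and 64.8 CPM in XX wild type and at 19.1, 20.4 and 18.5 in XY wild type, and it was also called lower in XY (log2 difference -1.62 ± 0.11, adjusted p = 0.000482).

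Lhx9, a LIM homeobox gene without which the gonad does not form, was at 301, 379 and 426 CPM in XX wild type and at 276, 298 and 124 in XY wild type. It was at 487, 382 and 379 CPM in XX and at 265, 249 and 283 in XY 1bp-ins heterozygotes, and at 505, 441 and 446 in XX and 296, 311 and 231 in XY 3bp-del heterozygotes. The sexes did not overlap in any of the 3 genotypes, but in wild type the lowest XX library (301 CPM) and the highest XY library (298) lay side by side. The log2 difference was -0.66 ± 0.10 (edgeR adjusted p = 0.000861) in 1bp-ins heterozygotes and -0.73 ± 0.12 (adjusted p = 0.00201) in 3bp-del heterozygotes. In wild type it was -0.69 ± 0.33 (adjusted p = 0.242) and was not called.

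Wt1, which acts with Lhx9 on the Nr5a1 promoter and later marks Sertoli and pregranulosa cells alike, was at 417, 468 and 515 CPM in XX wild type and at 342, 381 and 330.0 in XY wild type. In 1bp-ins heterozygotes it was at 550.0, 480.0 and 533 CPM in XX and at 321, 347 and 369.6 in XY. In 3bp-del heterozygotes it was at 575, 517 and 510.5 CPM in XX and at 389, 346 and 302 in XY. The sexes did not overlap in these 3 genotypes. The log2 difference was -0.60 ± 0.08 (edgeR adjusted p = 0.000324) and -0.62 ± 0.10 (adjusted p = 0.00223) in the heterozygotes. It was -0.44 ± 0.11 in wild type, where the adjusted p of 0.0517 missed the threshold.

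Nr5a1, which drives both steroidogenic and supporting cells and binds with SOX9 at the Amh promoter, was higher in XY. It was at 258, 218 and 225 CPM in XX 1bp-ins heterozygotes and at 414, 454 and 431 in XY, a log2 difference of 0.88 ± 0.08 (edgeR adjusted p = 2.9e-05). In 3bp-del heterozygotes it was at 296, 259.9 and 256 CPM in XX and at 444, 422 and 395 in XY, a log2 difference of 0.64 ± 0.08 (adjusted p = 0.000588). All 6 XY heterozygous libraries lay above all 6 XX heterozygous ones. In wild type Nr5a1 was at 186, 215 and 255 CPM in XX and at 471, 465 and 182 in XY. Replicate 3 of XY wild type lay below every XX wild type library, and the log2 difference of 0.75 ± 0.36 was not called (adjusted p = 0.238).

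Gata4, whose partnership with FOG2 is needed for testis formation, was at 422, 357 and 363 CPM in XX 1bp-ins heterozygotes and at 548, 619.7 and 586 in XY (log2 difference 0.61 ± 0.08, edgeR adjusted p = 0.000439). It was at 449.6, 394 and 383 CPM in XX 3bp-del heterozygotes and at 539, 503 and 478 in XY (0.32 ± 0.09, adjusted p = 0.0229). The sexes did not overlap in either genotype, and the 3bp-del call was lost (highest adjusted p = 0.106) when any 1 of XX replicate 2, XX replicate 3 or XY replicate 1 was left out. In wild type Gata4 was at 298, 338 and 377 CPM in XX and at 555, 525 and 242 in XY. The wild-type groups overlapped through XY replicate 3, and the difference (0.36 ± 0.31, adjusted p = 0.49) was not called.

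Dmrt1, which keeps Sertoli cells from turning to an ovarian fate after birth and also acts in germ cells, was at 28.3, 24.7 and 27.5 CPM in XX 1bp-ins heterozygotes and at 45.9, 40.9 and 47.0 in XY. In 3bp-del heterozygotes it was at 27.2, 31.3 and 26.0 CPM in XX and at 36.7, 37.5 and 45.7 in XY. The sexes did not overlap, with log2 differences of 0.72 ± 0.08 (edgeR adjusted p = 0.000126) and 0.51 ± 0.12 (adjusted p = 0.0119). The 3bp-del call was lost without XX replicate 3 (adjusted p = 0.0536). In wild type Dmrt1 was at 22.4, 19.6 and 22.1 CPM in XX and at 45.6, 47.8 and 17.1 in XY. As with Nr5a1, XY replicate 3 lay below all 3 XX libraries, and the difference of 0.76 ± 0.37 was not called (adjusted p = 0.242).

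Without XY wild type replicate 3, wild type gave 5 called members: the log2 differences were 1.08 for Nr5a1 (edgeR adjusted p = 0.000385), 0.66 for Gata4 (adjusted p = 0.00079) and 1.11 for Dmrt1 (adjusted p = 4.05e-05), and Wt1 and Emx2 were called lower (Wt1 adjusted p = 0.0106). With XX wild type replicate 1 left out as well, 6 members were called, the same 6 as in heterozygotes. Lhx9 was then at -0.49 (edgeR adjusted p = 0.000734). The shares of all genes called in these refits are not reported here, so the counts of 5 and 6 cannot be set against them. Replicate 3 was the library with the highest mesonephros sum and was also low in Sox9 (85.7 CPM, against 159 and 163) and Amh (218 CPM, against 542 and 474). Nr5a1, Gata4, Lhx9 and Dmrt1 were plotted against the mesonephros sum, and a trend over the libraries was not tested. In wild type the median sum was 50.3 CPM in XX and 22.9 in XY, and the ranges overlapped through XY replicate 3. In 1bp-ins heterozygotes it was 41.5 CPM in XX and 15.6 in XY, and in 3bp-del heterozygotes 47.2 and 14.9, without overlap in either. Of the germ cell markers tested, 0, 5 and 1 of 8 were called lower in XY wild type, 1bp-ins and 3bp-del heterozygotes, and of the mesonephros markers tested, 0 of 7, 4 of 5 and 6 of 8. Of all genes 5.94%, 20.2% and 13.8% were called lower in XY in these comparisons. The part of germ cells and mesonephric tissue in the sex differences was not tested.

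**Figure D2:**
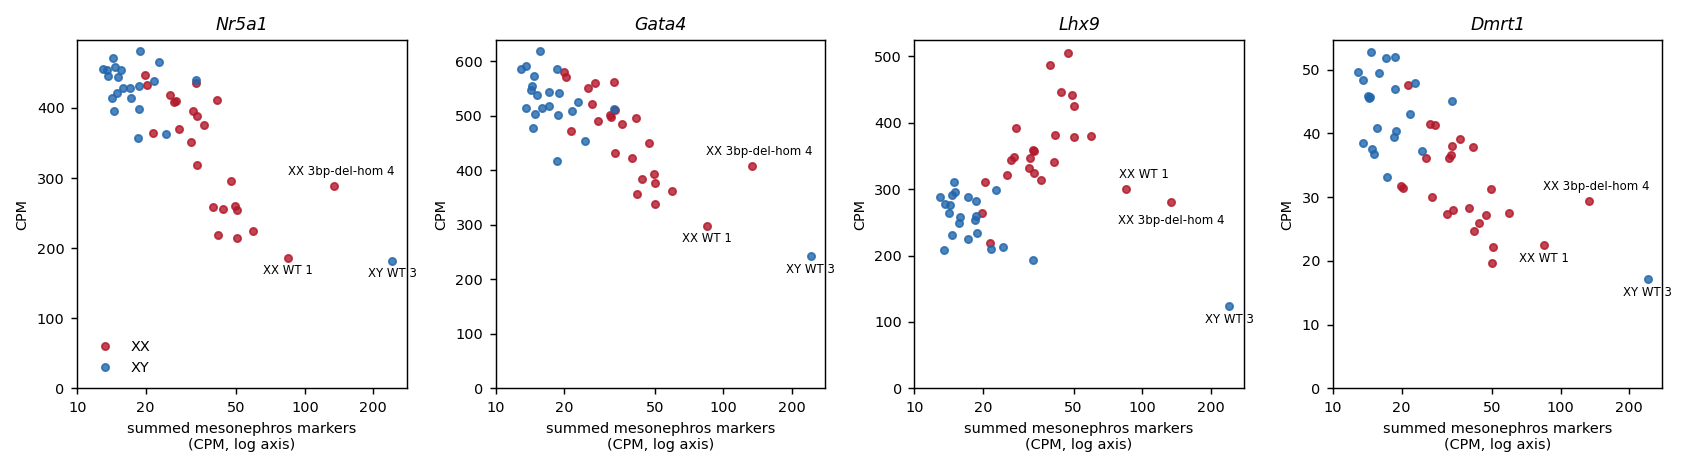
Level of Nr5a1, Gata4, Lhx9 and Dmrt1 (CPM, linear axis from 0) in each library against the summed level of 8 mesonephros markers (CPM, log axis), XX in red and XY in blue. The library farthest to the right, XY wild type replicate 3 at 242 CPM, is the lowest of all 46 in Nr5a1, Gata4, Lhx9 and Dmrt1.

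Zfpm2, Cbx2 and Six4 were not called by edgeR between the sexes in wild type or heterozygotes. Zfpm2 was at 67.2, 79.96 and 83.1 CPM in XX wild type and at 86.6, 91.9 and 70.3 in XY wild type, overlapping, with a log2 difference of 0.09 ± 0.13 (edgeR adjusted p = 0.713). Cbx2, a reader subunit of Polycomb repressive complex 1 whose loss turns XY mice to a female course, was at 98.5, 103 and 102 CPM in XX and 109.8, 107 and 116 in XY wild type, a difference of 0.10 ± 0.07 (adjusted p = 0.41). Six4 was at 23.7, 20.4 and 12.54 CPM in XX and 17.3, 16.0 and 19.3 in XY wild type, again overlapping (-0.14 ± 0.23, adjusted p = 0.736). These p-values do not show that the sexes are alike.

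In homozygotes the edgeR calls between the sexes were of genes lower in XY. Of the 9 genes 1 was called in 1bp-ins homozygotes (Emx2; 9.94% of all genes were called), 4 in 3bp-del homozygotes (Emx2, Wt1, Lhx9 and Zfpm2; 31.8% of all genes) and 3 in 3bp-12bp-del homozygotes (Emx2, Lhx9 and Wt1; 10.4% of all genes), each lower in XY. Of all genes 6.40%, 15.1% and 5.14% were called lower in XY, and 3.54%, 16.7% and 5.28% higher. By edgeR none of Nr5a1, Gata4 and Dmrt1 was called in any of the 3. By DESeq2, whose shares of all genes are not reported here, the calls numbered 3, 4 and 3. Those in 1bp-ins homozygotes were Emx2 (adjusted p = 0.00107) and Wt1 (adjusted p = 0.0352), both lower in XY, and Dmrt1, higher in XY (0.38, adjusted p = 0.0278). At an unadjusted p under 0.05 (edgeR), 4, 6 and 4 of the 9 passed, where 26.0%, 43.1% and 25.3% of all genes did.

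Emx2 stood at 145, 158, 129, 169.7 and 71.3 CPM in XX 1bp-ins homozygotes and at 76.8, 92.0, 74.5, 87.5 and 70.2 in XY. The ranges overlapped through XX replicate 5. The log2 difference of -0.76 ± 0.20 (edgeR adjusted p = 0.0413, n = 5 and 5) kept its call in 1 of the 10 fits that left out a library, the one without XX replicate 5. In 3bp-del homozygotes Emx2 was at 162, 174, 189, 158 and 188 CPM in XX and 57.9, 60.0, 61.1, 78.7 and 77.4 in XY, and in 3bp-12bp-del homozygotes it was at 141, 166, 196, 124 and 135 in XX and 72.6, 70.5 and 54.3 in XY. Neither pair overlapped. The differences were -1.39 ± 0.10 (adjusted p = 1.56e-06) and -1.21 ± 0.16 (adjusted p = 0.00688).

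Wt1 was at 499, 564, 581, 488 and 553 CPM in XX 3bp-del homozygotes and at 279, 332, 304, 351 and 356 in XY, with no overlap and a log2 difference of -0.74 ± 0.08 (edgeR adjusted p = 2.24e-05). In 3bp-12bp-del homozygotes it was at 484, 537, 553, 454 and 494 CPM in XX and at 362, 410.2 and 294 in XY (-0.51 ± 0.10, adjusted p = 0.0181), a call lost without XY replicate 1 (adjusted p = 0.054) or XY replicate 3. In 1bp-ins homozygotes it was at 525.6, 509, 466.2, 532 and 292 CPM in XX and at 362, 370.3, 333, 382 and 314 in XY. There the groups overlapped through XX replicate 5, and the difference of -0.42 ± 0.15 (adjusted p = 0.0998) was not called, while without that library it was (adjusted p = 0.000205). With all libraries Wt1 was called by DESeq2 and in 1 fit of all groups (adjusted p = 0.00842).

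Lhx9 was at 344, 347, 359.8, 281 and 393 CPM in XX 3bp-del homozygotes and at 212, 234, 211, 277 and 288 in XY, overlapping by 1 XX library, with a difference of -0.51 ± 0.11 (edgeR adjusted p = 0.00369). In 3bp-12bp-del homozygotes the values were 332, 348, 314, 264 and 311 CPM in XX against 224, 209 and 193 in XY, with no overlap (-0.59 ± 0.09, adjusted p = 0.00687). In 1bp-ins homozygotes they were 324, 341, 321, 358 and 219 CPM in XX against 258, 292, 289, 254 and 259 in XY, and the difference was not called (-0.22 ± 0.11, adjusted p = 0.246). Leaving out XX 1bp-ins homozygote replicate 5 gave -0.33 and a call (adjusted p = 0.00279). Zfpm2 was at 82.2, 95.0, 94.3, 79.8 and 86.3 CPM in XX and 73.3, 80.1, 80.8, 68.9 and 79.6 in XY 3bp-del homozygotes (-0.20 ± 0.07, adjusted p = 0.0321). The groups overlapped, and the call was lost in 5 of the 10 fits that left out a library. With an offset for gene length in the fit, Six4 was called between the sexes of 3bp-del homozygotes too, lower in XY (-0.36, edgeR adjusted p = 0.0096).

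The 3 genes higher in XY heterozygotes had smaller estimates between the sexes of homozygotes. Nr5a1 was at 388, 411, 419, 319 and 365 CPM in XX 1bp-ins homozygotes and at 428, 458, 428, 357 and 398 in XY, a log2 difference of 0.11 ± 0.08 (edgeR adjusted p = 0.459). It was 0.19 ± 0.10 in 3bp-del (adjusted p = 0.187) and 0.11 ± 0.08 in 3bp-12bp-del homozygotes (adjusted p = 0.437). For Gata4 the differences were 0.04 ± 0.09, 0.06 ± 0.09 and -0.00 ± 0.08 (adjusted p = 0.834, 0.639 and 0.995), the last of them with a sign that turned under another scaling (0.0037 with RLE factors) and under DESeq2. Dmrt1 had the largest of these differences, 0.37 ± 0.13 in 1bp-ins (adjusted p = 0.0866), 0.23 ± 0.10 in 3bp-del (adjusted p = 0.108) and 0.28 ± 0.12 in 3bp-12bp-del homozygotes (adjusted p = 0.189). In 1bp-ins homozygotes it was called by DESeq2, as given above, and by edgeR without XX replicate 5 (adjusted p = 0.00899) or XY replicate 4 (adjusted p = 0.0482), and in 3bp-del homozygotes without XY replicate 1 (adjusted p = 0.0398).

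**Figure D3:**
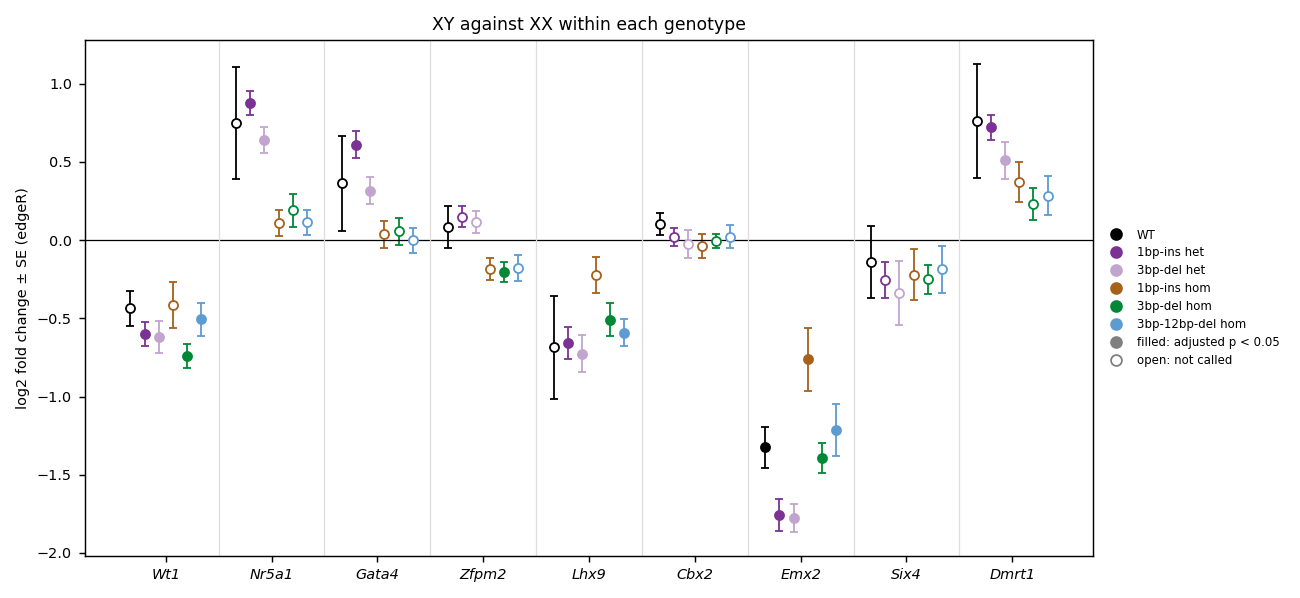
Log2 difference between XY and XX (edgeR fit, XY minus XX, ± SE) for each gene within each of the 6 genotypes; filled points were called at an adjusted p under 0.05 and open points were not. Emx2 lies below 0 and is called in all 6 genotypes (-0.76 to -1.78), while Nr5a1, Gata4 and Dmrt1 are called in the heterozygotes alone.

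Whether the sex difference itself differed between homozygotes and wild type was tested as an interaction. With edgeR 0 of 9 members were called for homozygotes of the 1bp-ins, the 3bp-del and the 3bp-12bp-del kind, where 1.04%, 3.83% and 0.597% of all genes were (0.207%, 1.75% and 0.105% higher and 0.834%, 2.07% and 0.492% lower), and DESeq2 also called 0 in each. At an unadjusted p under 0.05 (edgeR) there were 0, 2 and 0 members, where 11.6%, 23.8% and 13.7% of all genes passed. The estimates for Nr5a1 were -0.64 ± 0.32, -0.56 ± 0.33 and -0.66 ± 0.35, and those for Dmrt1 -0.39 ± 0.35, -0.53 ± 0.34 and -0.50 ± 0.38 (edgeR adjusted p from 0.318 to 0.712). These rest on XY wild type replicate 3: without it 3, 4 and 3 members were called, each with a smaller XY-minus-XX difference in homozygotes. Nr5a1 was then at -0.98, -0.89 and -0.99 (adjusted p = 0.00234, 0.00514 and 0.00207), Gata4 at -0.63, -0.60 and -0.68 (adjusted p = 0.0184, 0.0122 and 0.00596) and Dmrt1 at -0.74, -0.87 and -0.84 (adjusted p = 0.0316, 0.0032 and 0.00916). Zfpm2 was the added member in 3bp-del homozygotes (-0.40, adjusted p = 0.0275). The shares of all genes above are for all libraries. Those without replicate 3 are not reported here, so these counts cannot be set against them.

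In XX gonads homozygous for each of the 3 Enh13 alleles, Nr5a1, Gata4 and Dmrt1 were higher than in XX wild type. Of the 9 members 3 rose and 0 fell in 1bp-ins homozygotes, where 32.3% of all genes were called (17.2% higher and 15.1% lower). In 3bp-del homozygotes 3 rose and 1 fell, with 44.8% of all genes called (21.6% higher and 23.1% lower), and in 3bp-12bp-del homozygotes 4 rose and 1 fell, with 25.6% of all genes called (14.6% higher and 11.0% lower). By edgeR with TMM scaling and all libraries, Cbx2, Six4, Wt1 and Lhx9 were not called in any of the 3. DESeq2 called 4, 6 and 5 members, among them Wt1 and Cbx2 in 3bp-del homozygotes, and Cbx2 (0.13, DESeq2 adjusted p = 0.0112) was called there with RLE scaling too (edgeR adjusted p = 0.0398). The shares of all genes above are by edgeR, and those by DESeq2 are not reported here. The 3 comparisons share the XX wild type libraries, so each is given by its own values. The median log2 difference over the 9 members was 0.13, 0.16 and 0.11, beside 0.00, -0.03 and 0.00 over all genes tested.

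Nr5a1 was at 186, 215 and 255 CPM in XX wild type and, as given above, at 319 to 419 in XX 1bp-ins homozygotes. It was at 408, 396, 436, 289 and 369.9 CPM in XX 3bp-del and at 351, 409.9, 375, 447 and 432 in XX 3bp-12bp-del homozygotes. All 15 homozygous libraries lay above the 3 wild-type ones, the lowest of them being 3bp-del replicate 4, a library high in mesonephros markers. Without it 7 members were called in that group, and with XX wild type replicate 1 left out as well 4 were, as with all libraries. The shares of all genes called in these refits are not reported here. The log2 differences were 0.79 ± 0.12 (edgeR adjusted p = 0.0018), 0.77 ± 0.14 (adjusted p = 0.0021) and 0.88 ± 0.11 (adjusted p = 0.000768). Each was called in all 8 fits that left out a library.

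Gata4 was at 298, 338 and 377 CPM in XX wild type. It was at 510.1, 496, 551, 433 and 472 CPM in XX 1bp-ins, at 522, 498, 562, 408 and 492 in XX 3bp-del and at 502, 561, 485, 581 and 571 in XX 3bp-12bp-del homozygotes. No homozygous library reached down to the wild-type range. The log2 differences were 0.54 ± 0.09 (edgeR adjusted p = 0.00333), 0.53 ± 0.10 (adjusted p = 0.00227) and 0.68 ± 0.09 (adjusted p = 0.00079). Zfpm2, the gene of its cofactor, was called by edgeR in 3bp-12bp-del homozygotes, with 96.6, 112, 94.6, 95.8 and 100.04 CPM against 67.2, 79.96 and 83.1 in wild type. Those groups did not overlap (0.38 ± 0.08, adjusted p = 0.00739), and the values in 1bp-ins and 3bp-del homozygotes were 0.22 ± 0.10 (adjusted p = 0.136) and 0.16 ± 0.08 (adjusted p = 0.14). Whether the genotypes differ in Zfpm2 was not tested.

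Dmrt1 was at 22.4, 19.6 and 22.1 CPM in XX wild type. It was at 38.0, 37.8, 36.1, 28.0 and 47.7 CPM in XX 1bp-ins, at 41.4, 36.1, 36.7, 29.4 and 41.3 in XX 3bp-del and at 27.3, 30.1, 39.1, 31.8 and 31.4 in XX 3bp-12bp-del homozygotes. The lowest of the 15 (27.3 CPM) lay above the highest wild-type library, and the highest, 1bp-ins replicate 5, was also the XX homozygote with the most Amh (870.4 CPM, the others being at 12.6 to 183). The log2 differences were 0.81 ± 0.15 (edgeR adjusted p = 0.00456), 0.76 ± 0.11 (adjusted p = 0.000337) and 0.58 ± 0.11 (adjusted p = 0.00455), called in all 8 fits that left out a library. With the libraries high in neighbouring tissue left out, they were 0.84, 0.91 and 0.62 (adjusted p = 0.0154, 1.11e-05 and 0.0116).

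Emx2 fell in 2 of the 3 comparisons, from 183, 218 and 247 CPM in XX wild type to the values given above. In 3bp-del homozygotes (158 to 189 CPM) the log2 difference was -0.34 ± 0.09 (edgeR adjusted p = 0.0151), the ranges overlapped, and the call was lost in 1 fit of all groups (adjusted p = 0.14). In 3bp-12bp-del homozygotes (124 to 196 CPM) it was -0.51 ± 0.15 (adjusted p = 0.0392), kept in 2 of 8 fits that left out a library and lost without the filter on low counts (adjusted p = 0.0539). In 1bp-ins homozygotes it was -0.69 ± 0.25 and not called (adjusted p = 0.0707), though DESeq2 called it (adjusted p = 0.0101). Replicate 5 of that group, at 71.3 CPM, lay within the XY range, and without it Emx2 was called (adjusted p = 0.00928). Lhx9 was at -0.24 ± 0.16, -0.12 ± 0.12 and -0.23 ± 0.11 (adjusted p = 0.294, 0.458 and 0.161), and in 3bp-12bp-del homozygotes without XX wild type replicate 1, Lhx9 was called (-0.36, adjusted p = 0.0325). Wt1 was at -0.01 ± 0.19, 0.18 ± 0.08 and 0.11 ± 0.08 (adjusted p = 0.974, 0.0985 and 0.343).

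Over all genes, the log2 differences in these comparisons ran with gene length, with Spearman's rho of -0.39, -0.48 and -0.22 across genes for homozygotes of the 1bp-ins, the 3bp-del and the 3bp-12bp-del kind, longer genes being lower. Nr5a1, Gata4 and Dmrt1 lie near the middle of the length range, at percentiles 56.4, 50.5 and 41.6, and Zfpm2, Six4 and Cbx2 at 86.1, 94.0 and 72.3. With a length offset in the fit the differences of Nr5a1 were 0.81, 0.83 and 0.89 and those of Dmrt1 0.76, 0.73 and 0.55, and both genes kept their calls. Cbx2 in 3bp-del homozygotes went from 0.11 ± 0.05 (edgeR adjusted p = 0.0786) to a call at 0.27 (adjusted p = 0.000643).

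XX heterozygotes were set against XX wild type as well. In XX 1bp-ins heterozygotes 0 of 9 members were called by edgeR and 0 by DESeq2, with 0% of all genes called by edgeR. There 1 passed an unadjusted p under 0.05, Dmrt1 (0.32 ± 0.08, edgeR adjusted p = 0.51), where 7.97% of all genes did. In XX 3bp-del heterozygotes 1 was called, Dmrt1, where 10.9% of all genes were (4.78% higher and 6.15% lower). DESeq2 called 4 members there, and its share of all genes is not reported here. Dmrt1 was at 27.2, 31.3 and 26.0 CPM there and at 28.3, 24.7 and 27.5 in 1bp-ins heterozygotes, against 22.4, 19.6 and 22.1 in wild type. All 6 heterozygous libraries lay above the 3 wild-type ones. The 3bp-del difference of 0.38 ± 0.10 (edgeR adjusted p = 0.0451) lost its call in all 6 fits that left out a library (adjusted p up to 0.177). The group means of Dmrt1 were 26.9 ± 1.87 CPM in 1bp-ins and 28.2 ± 2.80 in 3bp-del heterozygotes, against 21.4 ± 1.54 in wild type (SD, n = 3 each).

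Homozygotes were also set against heterozygotes of the same allele, which shares no library with wild type. In XX 1bp-ins gonads 2 members rose and 1 fell, with 17.3% of all genes called (8.49% higher and 8.76% lower), and in XX 3bp-del gonads 3 rose and 2 fell, with 27.1% called (14.0% higher and 13.1% lower). Nr5a1 rose by 0.69 ± 0.10 (edgeR adjusted p = 0.00427) and 0.49 ± 0.12 (adjusted p = 0.013), and Gata4 by 0.36 ± 0.09 (adjusted p = 0.0268) and 0.28 ± 0.09 (adjusted p = 0.0447). Emx2 fell by 0.87 ± 0.24 (adjusted p = 0.046) and 0.48 ± 0.07 (adjusted p = 0.000901) on the log2 scale. Lhx9 fell by 0.43 ± 0.09 in 3bp-del (adjusted p = 0.00707) and was at -0.42 ± 0.15 in 1bp-ins (adjusted p = 0.0888).

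In these comparisons Dmrt1 differed by 0.47 ± 0.15 in 1bp-ins (edgeR adjusted p = 0.0539, not called) and by 0.39 ± 0.11 in 3bp-del (adjusted p = 0.0245), the second kept in 4 of 8 fits that left out a library. For Lhx9 the heterozygotes (379 to 487 CPM in 1bp-ins and 441 to 505 in 3bp-del) lay above all homozygotes of the same allele (219 to 358 and 281 to 393). For Emx2 they did so as well (224 to 276 and 228 to 263 CPM, against 71.3 to 169.7 and 158 to 189). In 1bp-ins the calls of Gata4 and Emx2 were kept in 4 and 2 of the 8 fits without a library, and in 3bp-del the call of Gata4 in 2 of 8. Without 3bp-del heterozygote replicate 3, Nr5a1 lost its call too (adjusted p = 0.0631) and 2 of 9 members were called. The share of all genes called in that fit is not reported here.

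**Figure D4:**
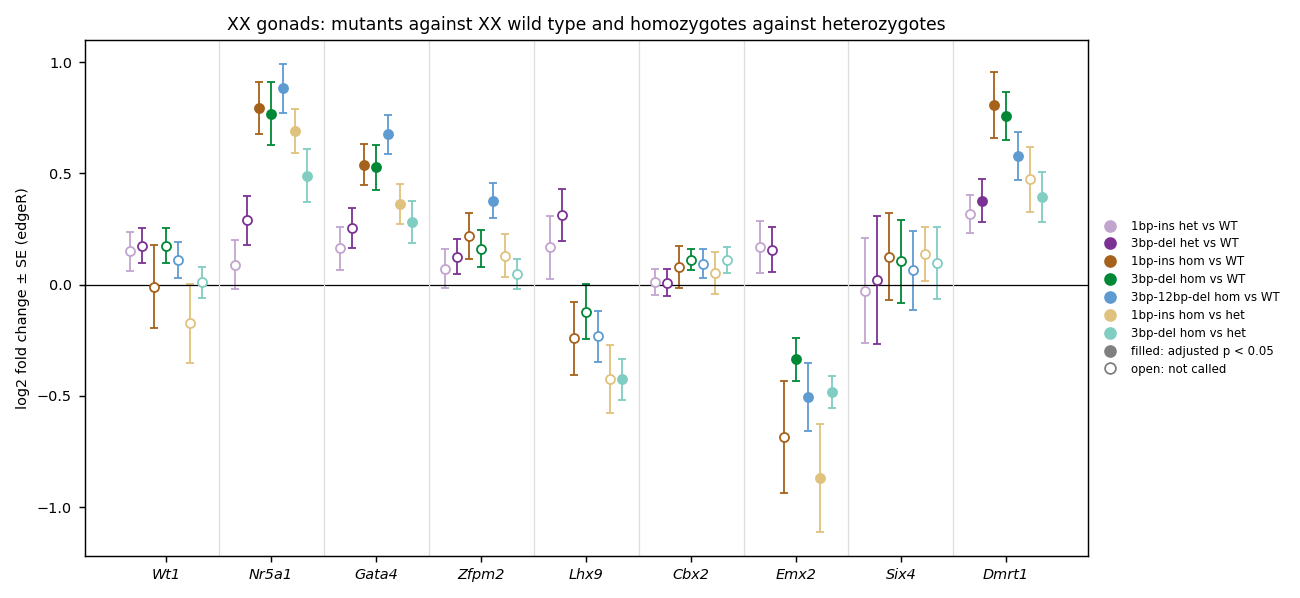
Log2 difference (edgeR fit, ± SE) of each gene in XX mutants against XX wild type and in XX homozygotes against XX heterozygotes; filled points were called at an adjusted p under 0.05. Nr5a1, Gata4 and Dmrt1 lie above 0 in the 3 homozygous groups (0.53 to 0.88), Emx2 lies below 0 (-0.34 to -0.69), and Cbx2 and Six4 have no filled point.

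Other markers moved with these differences. All 5 Sertoli markers listed (Sox9, Amh, Dhh, Fgf9 and Ptgds) were called higher in each of the 3 XX homozygous groups, and 6, 5 and 6 of 6 pregranulosa markers (Foxl2, Bmp2, Msx1, Fst, Wnt4 and Rspo1) were called lower. Of all genes 17.2%, 21.6% and 14.6% were called higher and 15.1%, 23.1% and 11.0% lower. The mesonephros sum was 50.1 to 84.6 CPM in XX wild type, 21.4 to 41.1 in XX 1bp-ins, 26.6 to 134 in XX 3bp-del and 19.9 to 36.0 in XX 3bp-12bp-del homozygotes. With the 4 libraries high in neighbouring tissue left out, Nr5a1 was at 0.69, 0.79 and 0.78 and Gata4 at 0.46, 0.55 and 0.60, and both kept their calls. The part of mesonephric tissue in the remaining differences was not tested. The summed level of 8 germ cell markers overlapped between XX wild type (196 to 407 CPM) and each homozygous group (207 to 477, 270.0 to 450.2 and 262 to 363). By edgeR 0 of the 8 were called in any of the 3 comparisons, where 32.3%, 44.8% and 25.6% of all genes were.

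The XX homozygotes were also placed on the scale from the XX mean (0%) to the XY mean (100%) of 1bp-ins heterozygotes, in log2 CPM, as a description. Nr5a1 lay at 78.3%, 77.3% and 87.9% for the 3 alleles in that order (1bp-ins first, then 3bp-del, then 3bp-12bp-del) and Gata4 at 59.6%, 61.1% and 81.2%. Dmrt1 lay at 63.5%, 62.0% and 33.1%. Of the genes lower in XY, Emx2 lay at 52.3%, 27.7% and 39.8% and Wt1 at 33.0%, -7.29% and 8.15%, with Lhx9 at 66.2%, 41.96% and 63.1%. On the scale of 3bp-del heterozygotes Emx2 (51.4%, 27.3% and 39.1%) and Nr5a1 (76.5%, 75.1% and 89.9%) lay at nearly the same places, while Gata4, whose sex difference is smaller there, lay at 85.6%, 88.7% and 129%. On that scale Dmrt1 lay at 79.3%, 77.1% and 34.9%, Lhx9 at 79.4%, 58.4% and 76.6% and Wt1 at 36.5%, -1.03% and 13.3%. On the scale of wild type Nr5a1 lay at 123%, 121% and 136% and Gata4 at 183%, 186% and 228%. Dmrt1 lay at 123%, 121% and 88.4% and Emx2 at 56.7%, 23.4% and 39.7%. Lhx9 lay at 32.4%, 11.8% and 29.7% and Wt1 at 8.15%, -50.2% and -27.8%. Without XY wild type replicate 3, Nr5a1 lay at 72.4%, 71.6% and 80.1% and Gata4 at 79.7%, 81.1% and 99.5%. Dmrt1 was then at 70.2%, 69.3% and 50.5% and Emx2 at 54.7%, 22.6% and 38.4%. Lhx9 was at 70.3%, 25.5% and 64.5% and Wt1 at 9.11%, -56.1% and -31.1%.

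XY gonads carrying the same alleles were set against XY wild type, a group spread wide by replicate 3 in Nr5a1, Gata4, Lhx9 and Dmrt1. By edgeR 0 of 9 members were called in any of the 5 XY genotypes, where 0% of all genes were called in 4 and 0.0130%, all of it higher, in 3bp-12bp-del homozygotes. DESeq2 called 0 members in each. These counts do not show that the groups are alike. At an unadjusted p under 0.05 there were 0 members in 1bp-ins heterozygotes and 1bp-ins homozygotes and 1, Emx2, in 3bp-del heterozygotes (-0.32 ± 0.12, edgeR adjusted p = 0.836), 3bp-del homozygotes (-0.39 ± 0.12, adjusted p = 0.428) and 3bp-12bp-del homozygotes (-0.42 ± 0.14, adjusted p = 0.647). Of all genes, 6.15% and 14.2% passed in 1bp-ins heterozygotes and homozygotes. In 3bp-del heterozygotes and homozygotes 4.85% and 10.9% did, and in 3bp-12bp-del homozygotes 6.84%. Emx2 was at 54.3 to 79.0 CPM over the 3 groups in which it passed and at 77.4 to 93.2 in XY wild type.

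Dmrt1 was at 45.6, 47.8 and 17.1 CPM in XY wild type. It was at 45.9, 40.9 and 47.0 CPM in XY 1bp-ins heterozygotes, at 49.5, 52.8, 51.9, 39.4 and 52.0 in XY 1bp-ins homozygotes and at 33.1, 38.5 and 45.0 in XY 3bp-12bp-del homozygotes. Apart from the wild-type replicate 3, the XY libraries of all 6 genotypes lay between 33.1 and 52.8 CPM. The log2 differences from wild type were 0.27 ± 0.35 and 0.42 ± 0.29 in 1bp-ins heterozygotes and homozygotes and 0.11 ± 0.35 and 0.24 ± 0.30 in 3bp-del heterozygotes and homozygotes. In 3bp-12bp-del homozygotes the difference was 0.08 ± 0.36 (edgeR adjusted p from 0.501 to 0.98 over the 5). Without replicate 3 of XY wild type 4 of these turned below 0, and the values ran from -0.26 to 0.07. The wild-type spread thus leaves differences of that size undetectable here.

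XY homozygotes set against XY heterozygotes of the same allele gave 0 called members by edgeR for 1bp-ins (12.6% of all genes called, 4.96% higher and 7.60% lower) and for 3bp-del (0% called). At an unadjusted p under 0.05 (edgeR) there was 1 in each, Zfpm2, where 29.1% and 19.0% of all genes passed. DESeq2 called Zfpm2 in both. Zfpm2 was at 90.4, 90.2 and 91.5 CPM in XY 1bp-ins heterozygotes and at 83.2, 82.5, 80.1, 77.9 and 74.0 in homozygotes, a difference of -0.18 ± 0.05 (edgeR adjusted p = 0.0506). It was at 95.9, 92.8 and 86.3 CPM in XY 3bp-del heterozygotes and at 73.3, 80.1, 80.8, 68.9 and 79.6 in homozygotes (-0.26 ± 0.07, adjusted p = 0.109). In neither allele did the groups overlap. The log2 differences of all genes ran with gene length here too (Spearman's rho of -0.55 and -0.29 across genes), and with the length offset and the replicate block together the first difference was 0.015.

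Other genes of the same families and pathway were taken from fixed lists, drawn up with earlier results of these data known. Of 16 other genital ridge factors, 3 were higher and 8 lower in XY than XX 1bp-ins heterozygotes, and 2 and 6 in 3bp-del heterozygotes, with medians of -0.45 and -0.17, where 18.9% of all genes were called higher and 20.2% lower in the first and 15.9% and 13.8% in the second. In XX homozygotes against XX wild type 3, 3 and 2 rose and 5, 8 and 6 fell, in the same order of alleles, with medians of -0.24, -0.22 and -0.08, where 17.2%, 21.6% and 14.6% of all genes rose and 15.1%, 23.1% and 11.0% fell. Kdm3a, a histone H3K9 demethylase that acts on Sry, was lower in XY wild type (-1.22 ± 0.12, edgeR adjusted p = 0.00151) and fell in the 3 XX homozygous groups (-0.90 ± 0.15, -0.89 ± 0.08 and -0.72 ± 0.15). Tcf21, a bHLH factor of the gonadal mesenchyme, was higher in XY wild type (0.90 ± 0.19, adjusted p = 0.0248) and rose in the 3 XX groups (0.91 ± 0.12, 0.68 ± 0.10 and 0.69 ± 0.11).

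Among the relatives of Gata4 and Zfpm2 (Gata1, Gata2, Gata3, Gata5, Gata6 and Zfpm1), 0 rose in the 3 XX homozygous groups, and 1, 1 and 3 of the 6 fell, beside 15.1%, 23.1% and 11.0% of all genes. Gata6, also a ridge factor, was lower in XY than XX wild type (-0.94 ± 0.12, edgeR adjusted p = 0.00472) and fell in XX 3bp-del (-0.31 ± 0.08, adjusted p = 0.012) and 3bp-12bp-del homozygotes (-0.38 ± 0.10, adjusted p = 0.017). Of 4 other Dmrt genes tested, Dmrt3 rose in the 3 XX homozygous groups (1.13 ± 0.30, 1.11 ± 0.25 and 0.77 ± 0.23), and Dmrta1 was lower in XY wild type (-2.14 ± 0.32, adjusted p = 0.00762). Of 10 PRC1 genes, the Polycomb partners of Cbx2, 0 were called by edgeR between the sexes in wild type, where 11.0% of all genes were. In the 3 XX homozygous groups 1, 1 and 2 were called, where 32.3%, 44.8% and 25.6% of all genes were, Cbx6 falling in 1bp-ins (-0.39 ± 0.10) and 3bp-12bp-del (-0.51 ± 0.06). Of the relatives of Lhx9, Lhx2 was lower in XY wild type (-1.71 ± 0.31, adjusted p = 0.0164) and fell in XX 1bp-ins (-0.87 ± 0.24) and 3bp-12bp-del homozygotes (-1.12 ± 0.22).

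Across the 46 libraries some members varied together. Pearson's r of log2 CPM was 0.95 between Nr5a1 and Gata4 and 0.92 between Wt1 and Emx2, and both held for deviations from the group means (0.97 and 0.89) and for these without XY wild type replicate 3 (0.95 and 0.90). Between Nr5a1 and Dmrt1 it was 0.83, and 0.58 for deviations without that library. Between Emx2 and Dmrt1 it was -0.65, and -0.17 for deviations without that library. Lhx9 was at 0.81 with Emx2, 0.79 with Wt1, -0.06 with Gata4 and -0.27 with Nr5a1. For deviations without that library, Lhx9 was at 0.68, 0.72, 0.60 and 0.56 with these, in the same order. These r describe libraries that share sex, genotype and tissue makeup. Among 12327 genes the most like Dmrt1 were Fam222a (0.915), Ppp1cc (0.908), Pmpca (0.908), Mtfp1 (0.902) and Sin3b (0.897). The most like Emx2 were its antisense gene Emx2os (0.986), Zfp703 (0.980) and Rspo1 (0.974), an ovarian WNT agonist and pregranulosa marker. Among the most like Wt1 were Zbtb7c (0.965) and Clec2l (0.953), and the most like Nr5a1 were Sorbs3, Gata4 and Umps (0.940 to 0.95). Gata4 was followed by Nr5a1, Trim62 and Gask1b (0.895 to 0.949) and Lhx9 by Hadhb, Prdx3 and Fam136a (0.887 to 0.895). Six4 was most like Gclc, Sall4 and Trim71 (0.860 to 0.876), of which Sall4 is a germ cell marker. The members that varied little had lower values, Zfpm2 with Ctnnd1, Jcad and Gpr37 (0.738 to 0.744) and Cbx2 with Sbk1, Mllt1 and Zfp668 (0.670 to 0.744).

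By group mean, Dmrt1 ran from 49.1 CPM in XY 1bp-ins homozygotes through 36.8 in XY wild type, which includes replicate 3, to 21.4 in XX wild type. Neighbours in the order of the 12 group means overlapped in range for every member, with 1 exception. The exception was Dmrt1 in XX 1bp-ins heterozygotes (24.7 to 28.3 CPM) and XX wild type (19.6 to 22.4), groups of 3 libraries each. The share of such gaps over all genes is not reported here, so the gap is not read as particular to Dmrt1. The order of Nr5a1 ended with the XX heterozygotes and XX wild type (271, 234 and 219 CPM), and that of Emx2 had all 6 XX groups (135 to 244 CPM) above all 6 XY groups (65.8 to 87.8). Cbx2 had group means of 101 to 112 CPM and single libraries at 86.9 to 119, and Six4 had group means of 15.3 to 20.7 CPM and libraries at 12.54 to 25.6.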

How the data were processed

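The authors' deposited count table holds estimated counts per gene symbol, 8.00 to 8.90% of them not whole per library, which were rounded here. The deposited TPM table was scaled by the authors for length, and its columns sum to 923510 to 945851. RNA was purified with a Qiagen RNeasy Plus micro kit and 140 ng entered NEB poly(A) and NEBNext UltraExpress kits, per the labels' protocols. Reads were placed on mm10 (per the submitters' processing notes). For aligner, counter, annotation and strand handling, nothing is given in the sources used here. Of the columns, 1 per table (XX 3bp-del homozygote, replicate 6) matches no sample and was not used.

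Each comparison was fitted on its own groups with edgeR 4.0.16 in R 4.3.3 (TMM scaling, filterByExpr, robust quasi-likelihood test, no block), and p-values were adjusted over all genes tested by the Benjamini-Hochberg method with a threshold of 0.05. SE is the log2 difference over the square root of F. Log2 CPM used a prior count of 2. Alternatives were DESeq2 1.42.0, RLE scaling, no filter, 1 fit of all groups, the replicate number as a block, a gene length offset (lowess of log counts on relative length, span 0.3), block and offset together, and leaving out libraries. The fits were tested on simulated counts. No 2 libraries of a group agreed within sampling noise. In no comparison did all same-numbered pairs deviate together (r over 0.1), so the numbers were not taken to pair samples. The members and lists were chosen with earlier results of these data known. Named genes are the 9 members, up to 3 called genes of the largest change per other list, the genes most correlated with each member (mean log2 CPM of at least 1, predicted genes left out), and Sox9, Amh and Foxl2. Some genes of the lists and of the correlated genes are not reported here by name, though counts and sums over the lists include them.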

Additional observations from a re-analysis of the deposited data

Results flagged for a closer look

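Among 45 sets of 5 libraries, 1 for each gene and group of that size, 3 held a library far from the others by Dixon's test, which chance gives in about 1 in 20. In XX 1bp-ins homozygotes, replicate 5 had Wt1 at 292 CPM, the others being at 466.2 to 532, and Lhx9 at 219 CPM, the others being at 321 to 358. The same library had the highest Amh of the XX homozygotes (870.4 CPM) and the lowest Emx2 of all XX libraries (71.3 CPM). In XY 1bp-ins homozygotes, replicate 4 had Dmrt1 at 39.4 CPM, the others being at 49.5 to 52.8.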

How the results depend on the processing

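Counts are of called members out of 9, and where a count or sign turned the cause was not tested. Not every change of a count is listed. The shares of all genes called in these other fits are not reported here, so the counts cannot be set against them. For XY against XX wild type the count of 1 became 2 with DESeq2, 2 with the length offset, 5 in 1 fit of all groups and 6 without the libraries high in neighbouring tissue, and ran from 1 to 5 over single libraries left out. For 1bp-ins homozygous XY against XX the count of 1 became 0 without the filter, 2 in 1 fit and 3 with DESeq2, with the replicate block and with block and offset, and 0 to 4 over single libraries left out. For XX 3bp-del heterozygotes against XX wild type the count of 1 became 4 with DESeq2, and 0 with the replicate block, the offset, both together, 1 fit, or the neighbouring-tissue libraries left out, and 0 to 1 over single libraries. For XX 1bp-ins homozygotes against XX wild type the count of 3 became 5 in 1 fit and 6 with replicate block and offset. For XX 3bp-del homozygotes the count of 4 became 8 with block and offset and 3 to 7 over single libraries, with 7 without replicate 4. It stayed at 4 with XX wild type replicate 1 left out as well. Against heterozygotes, XX 1bp-ins homozygotes went from 3 to 5 with DESeq2 and with block and offset, and 1 to 5 over single libraries, and XX 3bp-del homozygotes from 5 to 2 in 1 fit and 2 to 5 over single libraries. XY homozygotes against heterozygotes went from 0 to 1 with DESeq2 (both alleles) and with RLE scaling (1bp-ins). The interactions went from 0 to 3, 4 and 3 without the neighbouring-tissue libraries and ran from 0 to 3, 0 to 4 and 0 to 3 over single libraries.

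Signs turned for Gata4 between the sexes of 3bp-12bp-del homozygotes (-0.00): 0.0037 with RLE scaling, 0.0037 with DESeq2, 0.065 with the replicate block, 0.061 with block and offset, 0.00078 in 1 fit, and -0.071 to 0.033 over single libraries; in 1bp-ins homozygotes it ran from -0.00089 to 0.10. For Dmrt1 against XY wild type, the differences without the neighbouring-tissue libraries were -0.069 and -0.17 in 1bp-ins and 3bp-del heterozygotes and -0.10 and -0.26 in 3bp-del and 3bp-12bp-del homozygotes, and over single libraries -0.069 to 0.50, -0.22 to 0.34, -0.10 to 0.48 and -0.26 to 0.31. With block and offset, Zfpm2 in XY 1bp-ins and Dmrt1 in XY 3bp-del homozygotes against heterozygotes were at 0.015 and -0.0025. Of 64 same-numbered pairs in 20 comparisons 15 had r over 0.1, in no comparison all of them, so the numbers were not taken to pair samples. With the replicate block the count went from 1 to 3 in 1bp-ins homozygous XY against XX. There 4 of 5 pairs were over 0.1, and Dmrt1 (0.38, edgeR adjusted p = 0.0130) and Wt1 (adjusted p = 0.0377) were called beside Emx2. Against XX wild type, the block took XX 3bp-del heterozygotes from 1 to 0, XX 1bp-ins homozygotes from 3 to 4 and XX 3bp-del homozygotes from 4 to 6. In XX 1bp-ins homozygotes against heterozygotes the count went from 3 to 4. With RLE scaling XX 3bp-del homozygotes went from 4 to 5 against wild type and from 5 to 4 against heterozygotes. XY 1bp-ins homozygotes against heterozygotes went from 0 to 1.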
